A study of Capra hircus with 2 samples.

Results

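The let-7 family of the goat mammary gland comprised 9 mature miRNAs, let-7a, let-7b, let-7c, let-7d, let-7e, let-7f, let-7g, let-7i and miR-98. They were followed in 2 small RNA libraries. The early involution library came from dairy goats on day 5 after forced weaning at late lactation, which was day 218 after parturition. The early lactation library came from dairy goats on day 10 after parturition. Each was 1 library made from the mixed RNA of 5 goats, so there was no replicate, the spread between goats is unknown, and no test between the stages was made. Weaning and the time since parturition differed together between the libraries and cannot be told apart.

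Members were chosen by name and recognised by sequence. A tag is a distinct sequence with its read count. Tags of 18 nt or more were given to a member if they matched its mature sequence without mismatch, ran no more than 3 nt past its end, and lacked no more than 2 bases at the 5′ end. By this rule 417 of 259250 distinct tags belonged to the family in involution, and 441 of 305711 in lactation. The libraries held 7385833 clean tags in involution and 18031615 in lactation, so lactation was 2.44 times deeper. The unit of level is TPM, the number of tags in every 1000000 clean tags. The same rule, applied around every other abundant tag of 20 to 24 nt, gave 1162 tag groups that reached 10 TPM. Together with the 9 members they formed a background of 1171.

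A miRNA pairs with messenger RNAs mainly through its seed, bases 2 to 8, and lowers their translation and stability. let-7 was found as a timing regulator in the nematode Caenorhabditis elegans and is among the most abundant miRNA families of differentiated mammalian tissue, where the mRNAs of HMGA2 and RAS genes are known targets. In stem and embryonic cells the protein LIN28 binds let-7 precursors and blocks their maturation. In mouse mammary epithelial cultures, let-7 is depleted from progenitor cells. Because all members share the seed, they are taken to recognise largely the same sites, and the pool as a whole matters for those targets.

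The mature sequences are shown because the members can be told apart by a few bases only, and because the base before the last 3 turns out to divide them. They were read from the deposited tags, which write T for U. The seed is in capitals.
let-7a: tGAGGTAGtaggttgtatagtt
let-7b: tGAGGTAGtaggttgtgtggtt
let-7c: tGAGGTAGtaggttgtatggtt
let-7d: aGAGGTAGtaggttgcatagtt
let-7e: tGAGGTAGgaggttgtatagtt
let-7f: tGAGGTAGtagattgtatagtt
let-7g: tGAGGTAGtagtttgtacagtt
let-7i: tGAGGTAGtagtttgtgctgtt
miR-98: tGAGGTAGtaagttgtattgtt

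All 9 sequences had 22 nt, and 14 of the 22 positions held the same base in every member. Counted from 1 at the 5′ end of let-7a, let-7c differed from it by A19G, let-7e by T9G and let-7f by G12A. let-7b carried A17G and A19G, and miR-98 carried G11A and A19T. let-7d was the member without T at base 1 (T1A), and it also carried T16C. let-7g differed by G12T and T18C, and let-7i by G12T, A17G, T18C and A19T. Of 36 pairs of members, 4 differed by 1 base and the most distant by 6. Base 19 was A in let-7a, let-7d, let-7e, let-7f and let-7g, G in let-7b and let-7c, and T in let-7i and miR-98.

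The family took 149870 TPM in involution and 197899 TPM in lactation, from 1106918 and 3568436 tags. The ratio of involution to lactation was 0.757 (95% interval 0.756 to 0.759), a level 1.32-fold lower in involution. Intervals here and below are exact and cover counting error only, since the reads carried no molecular identifiers that would show PCR copies. In pooled tissue, fewer cells of a type and less of an RNA per cell cannot be told apart. Every tag with the seed sequence GAGGTAG at bases 2 to 8, whatever followed, summed to 158403 TPM in involution and 208783 TPM in lactation, which was 15.8% and 20.9% of all clean tags. The members as defined held 94.5% of that seed pool in involution and 94.7% in lactation.

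let-7a and let-7b were the most abundant members, and let-7c was the one member called between the stages. A call required a difference of at least 2-fold, an interval that excluded 1, and 10 TPM in a library. Of the 9 members, 1 was lower in involution, where 4.44% of the 1171 tag groups were, and 0 were higher, where 34.3% of the tag groups were. The other 8 lay within 2-fold. The median log2 ratio over the members was -0.06, with 5 members below 0 and 4 above, against 0.49 over all tag groups and -0.05 over the 42 groups of at least 1000 TPM in both libraries. Every member's interval excluded 1, which at these depths happens for small differences and says nothing of the spread between goats.

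**Figure D1:**
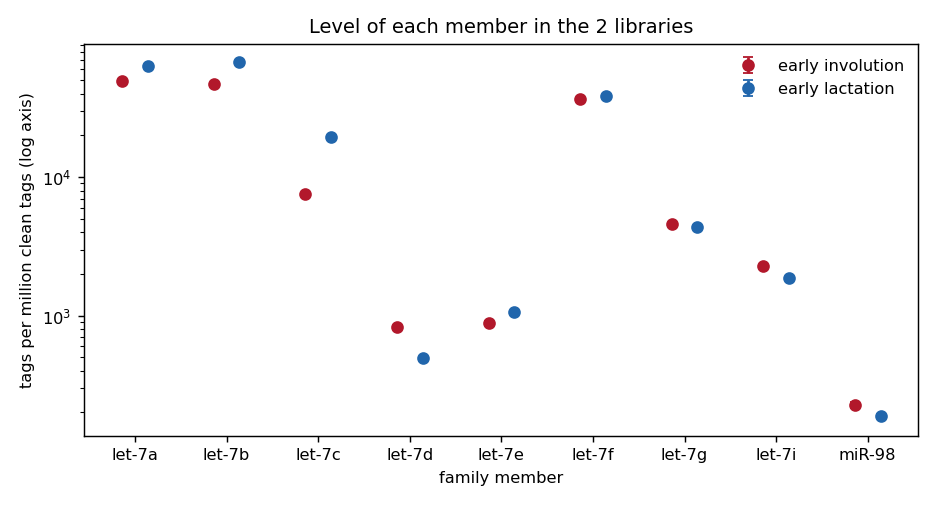
Level of each member in TPM on a log axis, early involution (red, left) and early lactation (blue, right); bars are exact Poisson 95% intervals and are mostly smaller than the points. let-7c stood at 7608 TPM in involution and 19583 TPM in lactation, whereas let-7f, let-7g, let-7i and miR-98 sat side by side.

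let-7c had 7608 TPM in involution (7545 to 7671) and 19583 TPM in lactation (19519 to 19648), from 56190 and 353120 tags. It was 2.57-fold lower in involution (2.55 to 2.60). let-7b had 47048 TPM in involution and 68017 TPM in lactation, a ratio of 0.692 (0.689 to 0.694). let-7a had 49574 TPM in involution and 63872 TPM in lactation, a ratio of 0.776 (0.773 to 0.779). The members with G at base 19 thus had the lowest ratios of the family, and let-7a came next. let-7e followed with 891 TPM in involution and 1066 TPM in lactation, a ratio of 0.836 (0.813 to 0.860).

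The remaining members lay near or above the same level in both libraries. let-7f had 36810 TPM in involution and 38436 TPM in lactation, a ratio of 0.958 (0.953 to 0.962). let-7g had 4621 TPM in involution and 4364 TPM in lactation, a ratio of 1.06 (1.05 to 1.07). let-7i and miR-98, which share T at base 19, also had like ratios. let-7i stood at 2270 TPM in involution and 1881 TPM in lactation (ratio 1.21, 1.18 to 1.23). miR-98 stood at 225 TPM in involution and 188 TPM in lactation (ratio 1.20, 1.13 to 1.27). let-7d had the highest ratio, 1.67 (1.62 to 1.73), with 823 TPM in involution and 492 TPM in lactation.

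These ratios depend on the scaling. Median-of-ratios and TMM factors over the tag groups shifted every log2 ratio down by 0.45 and 0.50, and 8 of the 9 members then lay below 0, let-7g, let-7i and miR-98 among them. let-7d stayed above 0 under both, and the order of the members does not depend on the scaling. With TMM factors let-7b was called lower beside let-7c, a rule under which 13.5% of tag groups were lower and 23.7% higher. With a 1.5-fold limit and the original scaling, let-7c was called lower, as were 11.6% of tag groups, and let-7d higher, as were 46.4%. When only the tag identical to the mature sequence was counted, let-7i and miR-98 were called higher and let-7c lower. By that rule, applied to the commonest tag of each group, 7.3% of 699 groups were lower and 39.3% higher.

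From high to low, the order in involution was let-7a, let-7b, let-7f, let-7c, let-7g, let-7i, let-7e, let-7d and miR-98. In lactation let-7b came before let-7a, and the other members kept their places. The counting intervals of neighbours in either order did not overlap. let-7a, let-7b and let-7f ranked 3, 4 and 5 among all tag groups in involution, and 4, 3 and 6 in lactation. let-7c ranked 14 in involution and 8 in lactation. miR-98 ranked 197 in involution and 166 in lactation. The highest member exceeded the lowest 220 times in involution and 361 times in lactation.

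**Figure D2:**
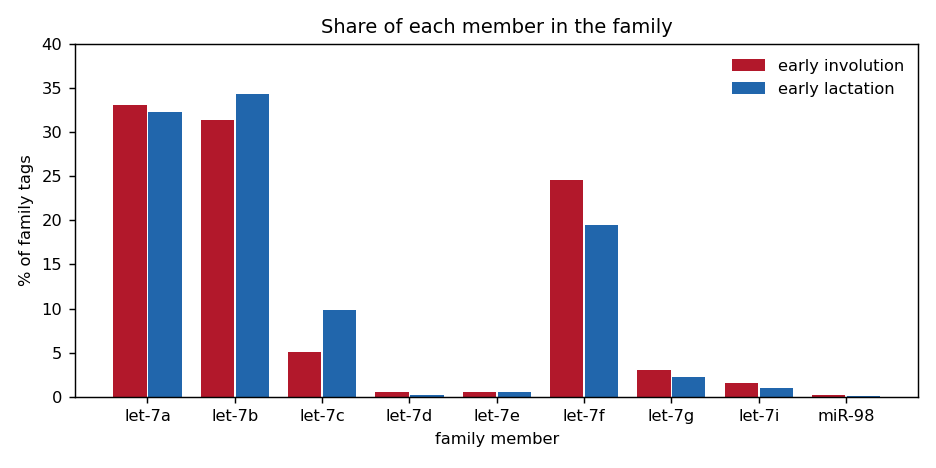
Share of each member in the tags of the family, early involution (red, left) and early lactation (blue, right). let-7c took 5.08% in involution and 9.90% in lactation, and let-7f 24.6% and 19.4%.

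Shares within the family do not depend on how the libraries are scaled. let-7c took 5.08% of family tags in involution (5.04 to 5.12%) and 9.90% in lactation (9.86 to 9.93%). let-7b took 31.4% in involution and 34.4% in lactation. let-7f took 24.6% in involution and 19.4% in lactation, and let-7a 33.1% and 32.3%. let-7c and let-7b thus held less of the family in involution, and let-7f held more of it. let-7d, the rarest member after miR-98 in both libraries, took 0.549% in involution and 0.249% in lactation. The share of let-7e was 0.594% in involution and 0.538% in lactation. let-7a, let-7b and let-7f together made up 89.0% of the family in involution and 86.1% in lactation.

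The pair that differs by A19G shows the shift most directly. For each let-7a tag there were 0.153 let-7c tags in involution and 0.307 in lactation. By contrast, there were 0.949 let-7b tags per let-7a tag in involution and 1.06 in lactation. Tags that could belong to both let-7a and let-7c, which end before base 19, were set aside; they numbered 2301 in involution and 5745 in lactation.

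Some rare members could in principle be misread copies of an abundant one, so single-base differences from let-7a were counted. Full-length tags with T9G, the sequence of let-7e, numbered 2454 in involution and 6934 in lactation, or 1.06% and 0.874% of identical let-7a tags. The other substitutions at that base were far rarer, with T9A at 0.0121% in involution and 0.0189% in lactation and T9C at 0.0310% and 0.0298%. Over the 49 substitutions at bases 2 to 18 that make no member, the median was 0.0112% in involution and 0.0107% in lactation, and the highest was A17G at 0.114% and 0.119%. let-7e thus stood above each of these 49 changes. At the last base, outside that range, T22A was at 1.16% in involution and 1.22% in lactation, which exceeded T9G. That tag is let-7a cut to 21 bases and followed by A, a kind of end described further on. The same T9G change on let-7b, which makes no member, was at 0.0361% in involution and 0.0365% in lactation.

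By the RefSeq genes listed for the goat assembly ARS1.2, those of 6 members lie within 10 kb of another miRNA gene that was measured. let-7a neighbours let-7b, let-7d neighbours let-7f, let-7c neighbours miR-99a and let-7e neighbours miR-99b. A mature miRNA that more than 1 gene encodes cannot be traced to a locus from its tags. The neighbours were recognised by their starting bases. miR-99a and miR-100 share their first 9 bases, as do miR-125a and miR-125b, so longer starts were needed to count these apart. miR-99a, the neighbour of let-7c, had 579 TPM in involution and 275 TPM in lactation, and was 2.10 times higher in involution (2.02 to 2.19). It went the other way from let-7c, which was 2.57-fold lower. miR-99b, the neighbour of let-7e, had 293 TPM in involution and 578 TPM in lactation (ratio 0.508, 0.485 to 0.532), against 0.836 for let-7e.

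miR-125a, miR-125b and miR-100 accompany let-7 genes in other mammals and were measured the same way. miR-125b had 978 TPM in involution and 493 TPM in lactation (ratio 1.98, 1.92 to 2.05). miR-125a had 258 TPM in involution and 203 TPM in lactation (ratio 1.28, 1.21 to 1.35). miR-100 had 208 TPM in involution and 654 TPM in lactation (ratio 0.317, 0.301 to 0.335). In human, miR-99a and miR-125b are encoded beside let-7c, and these 2 had ratios near 2 while let-7c was lower. miR-125b is also encoded beside miR-100 and a copy of let-7a, both lower in involution, so its ratio cannot be traced to a single locus. With TMM factors the ratios were 1.48 for miR-99a and 1.40 for miR-125b, and that of miR-125a was then 0.8997.

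In human cells the precursors of let-7c, let-7e and 1 copy of let-7a are processed without the added uridine that the other let-7 precursors need. The ratios of let-7c and let-7e in these goat libraries were 0.388 and 0.836. The members whose human precursors all need the added base, let-7b, let-7d, let-7f, let-7g, let-7i and miR-98, had ratios between 0.692 and 1.67. let-7b lay below let-7e, so the classes overlapped.

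The opposite arm of each precursor, the strand that is mostly discarded, was recognised by its starting bases. The arms of let-7a and let-7f share their first 9 bases, as do those of let-7b and miR-98, so longer starts were needed to count these apart. The 9 opposite arms summed to 30.6 TPM in involution and 14.8 TPM in lactation, from 226 and 267 tags. Of the 9, 8 had a ratio above 1, and for 3 the interval lay above 1. The median log2 ratio over all tag groups was likewise positive at this scaling, 0.49, and 34.3% of them were at least 2-fold higher. With median-of-ratios or TMM factors 7 of 9 had a ratio above 1, let-7a-3p dropping below it, and the interval of 3 still lay above it. let-7b-3p had 55 tags in involution and 45 in lactation and was 2.98 times higher in TPM (1.98 to 4.53). let-7d-3p had 65 tags in involution and 55 in lactation (ratio 2.89, 1.98 to 4.21). let-7e-3p had 15 tags in involution and 8 in lactation (ratio 4.58, 1.82 to 12.5). The opposite strand of let-7b thus had a ratio above 1 where its main strand had one below 1. let-7d had the most visible opposite arm, at 1.06% of both arms in involution (0.817 to 1.35%) and 0.616% in lactation (0.464 to 0.801%). let-7c-3p had 4 tags in involution and 11 in lactation, too few to show a difference at this depth.

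Each member was a set of tags with different 3′ ends. Over the family, 57.3% of tags ended at the last mature base in involution and 61.8% in lactation. Tags that ended earlier made up 33.4% in involution and 27.2% in lactation. Tags that ran past it made up 9.34% in involution and 11.03% in lactation. Shorter tags took a larger share in involution in 7 of 9 members. The exceptions were let-7i, with 30.6% in involution and 51.7% in lactation, and miR-98, with 45.6% in involution and 65.4% in lactation.

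**Figure D3:**
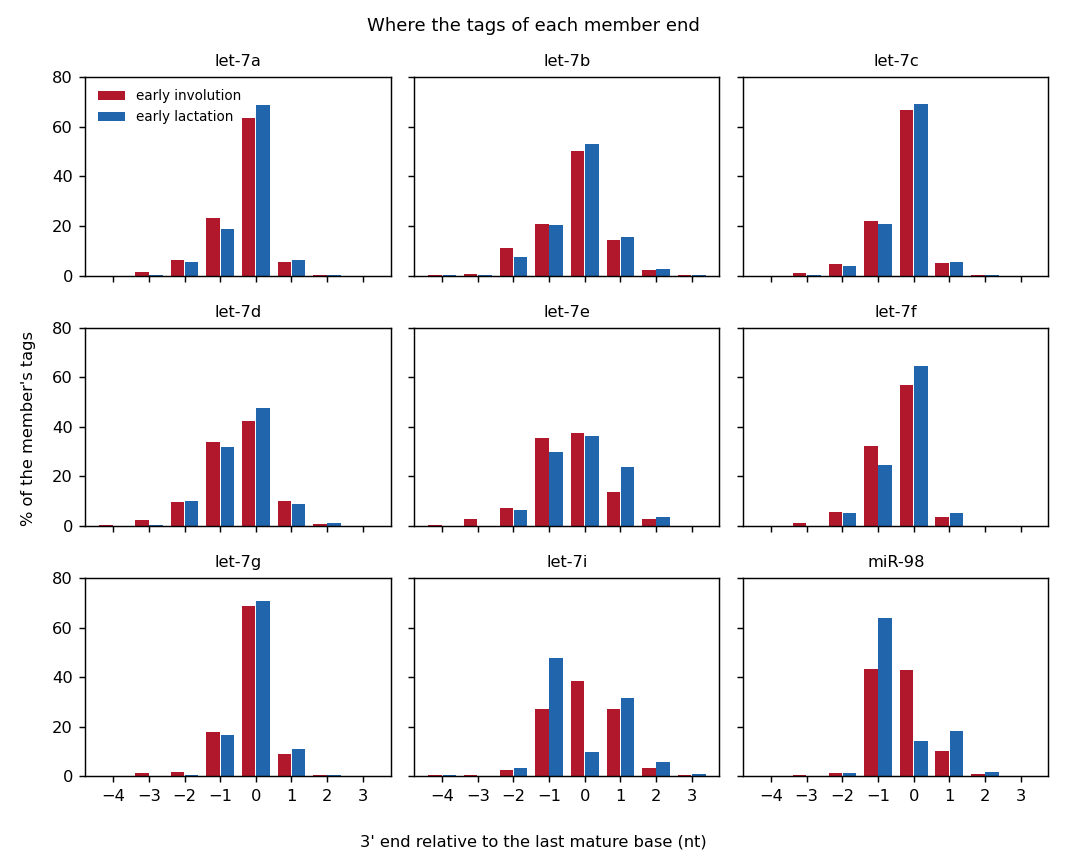
Percentage of each member's tags by the position of the 3′ end relative to the last mature base (0), early involution (red, left bar) and early lactation (blue, right bar). In let-7i and miR-98 the bars at 0 stand at 38.3% and 43.0% in involution and at 9.72% and 14.4% in lactation, and the bars at -1 go the other way.

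Among the members, let-7i and miR-98 differed most between the libraries in whether the final T was present. Their forms with and without it are shown, with base 19 and what follows in capitals.
let-7i, 22 nt: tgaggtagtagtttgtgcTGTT
let-7i, 21 nt: tgaggtagtagtttgtgcTGT
miR-98, 22 nt: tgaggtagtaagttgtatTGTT
miR-98, 21 nt: tgaggtagtaagttgtatTGT
The 22-nt let-7i tag had 867 TPM in involution and 183 TPM in lactation, 4.75 times higher in involution (4.56 to 4.96). The 21-nt let-7i tag had 614 TPM in involution and 895 TPM in lactation, a ratio of 0.686 (0.664 to 0.709). The direction of let-7i thus depended on which of its main tags was counted.

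miR-98 showed the same split at a lower level. Its 22-nt tag had 96.0 TPM in involution and 27.0 TPM in lactation, 3.55 times higher in involution (3.16 to 3.997). Its 21-nt tag had 97.1 TPM in involution and 120 TPM in lactation, a ratio of 0.809 (0.743 to 0.881). Of the 21-nt and 22-nt tags together, the 22-nt form made up 58.6% for let-7i in involution and 16.9% in lactation. For miR-98 it made up 49.7% in involution and 18.4% in lactation. In the other 7 members, which have A or G at base 19, the 22-nt form made up between 51.3% and 79.2% in involution and between 54.9% and 80.9% in lactation. Each was lower in involution, most of all let-7f with 63.6% in involution and 72.2% in lactation.

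The same measure was taken outside the family, on pairs of tags that differ by a final T. Where the shorter tag ended in TGT, as in let-7i and miR-98, the median share of the form with the final T over 35 pairs was 1.43% in involution and 0.935% in lactation, and it was higher in involution in 22 pairs. Where the shorter tag ended in AGT or GGT, as in the other members, the median over 75 pairs was 8.93% in involution and 7.83% in lactation, and it was higher in involution in 35 pairs. Pooled over tags, the shares were 6.11% in involution and 1.74% in lactation for TGT, and 34.6% and 18.7% for AGT or GGT, values that the most abundant pairs weight most. Medians this low leave no room for gaps in percentage points as wide as those of let-7i and miR-98, so sizes cannot be compared this way. The pooled shares of both classes were higher in involution. Among all tags of 20 to 24 nt outside the family, those ending in TGTT had a ratio of 1.77 and those ending in TGT 0.549. These are the directions of the longer and shorter tags of let-7i and miR-98. The TGT class may rest largely on 1 miRNA, however. All tags ending in TGT numbered 290311 in involution and 1290904 in lactation. The start of miR-148a, whose commonest tag ends in TGT, had 189964 tags in involution and 1032107 in lactation, a ratio of 0.449. How many of these end in TGT was not counted. Tags ending in AGTT or GGTT had a ratio of 1.74.

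Tags of 19 nt, which end at base 19 and lack the last 3 bases, were rare. Over the summed family they had the highest ratio of the 3′ ends, 2.81 (2.74 to 2.89). They made up 1.10% of family tags in involution and 0.297% in lactation, and their share was larger in involution in 9 of 9 members. The let-7f form is shown, with base 19 in capitals, because it had the most tags among the forms over 10 times higher in involution.
let-7f, 19 nt: tgaggtagtagattgtatA
It had 3639 tags in involution and 782 in lactation, or 493 and 43.4 TPM, and was 11.4 times higher in involution (10.5 to 12.3).

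**Figure D4:**
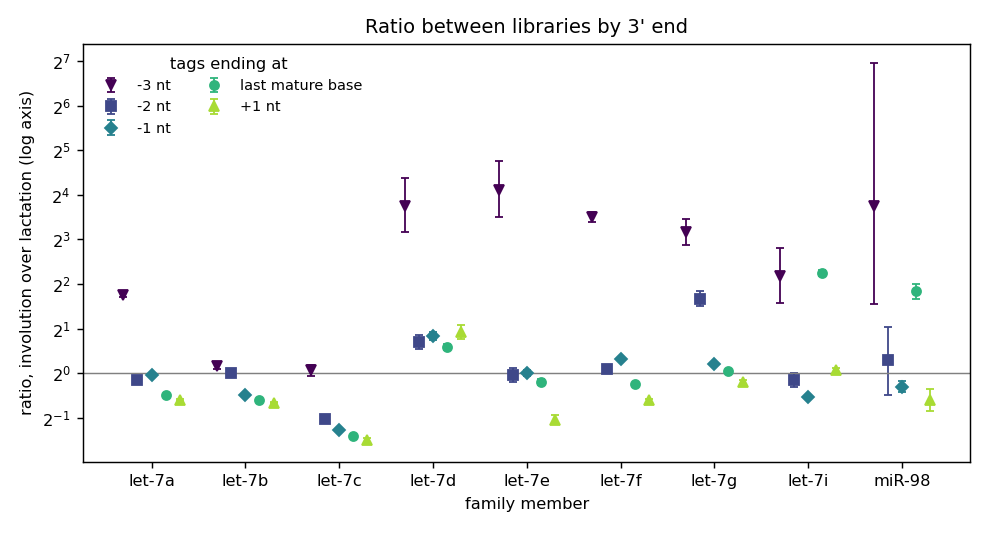
Ratio of involution to lactation for the tags of each member that end at a given position, on a log axis; bars are exact 95% intervals and the grey line marks equal levels. Tags 3 nt short lie highest for 8 of 9 members, and those of let-7b and let-7c lie close to 1; in let-7i and miR-98 the full-length tags also stand well above 1.

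Counting the few tags that also lack 5′ bases, tags with this 3′ end had ratios well above 1 in every member with A at base 19. The ratio was 3.39 for let-7a (3.25 to 3.54), 8.97 for let-7g (7.39 to 10.96), 11.3 for let-7f (10.5 to 12.3), 13.4 for let-7d (8.93 to 20.9) and 17.3 for let-7e (11.4 to 27.2). It was 1.12 for let-7b (1.06 to 1.18) and 1.04 for let-7c (0.954 to 1.14), the members with G there. These 2 members were lower in involution as a whole, with ratios of 0.692 and 0.388, so their ratios here do not mean an unchanged share. These tags took 0.567% of let-7b in involution and 0.350% in lactation, and 1.30% and 0.483% of let-7c. For let-7a the shares were 1.35% in involution and 0.310% in lactation. let-7i and miR-98, with T, had 4.54 (2.99 to 7.01) and 13.4 (2.93 to 125), the last from 11 tags in involution and 2 in lactation.

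All 19-nt tags outside the family had a ratio of 1.77. By last base the ratio was 1.98 for A, 1.56 for C, 1.08 for G and 3.67 for T, so G was also the lowest outside the family. The libraries differed in short inserts as well. Per the authors' filter logs, tags under 18 nt were 4.14% of high-quality reads in involution and 0.920% in lactation, and 5′ adaptor contaminants were 14.03% and 0.0505%. The logs were matched to the libraries by their equal number of clean reads alone. The part of these differences in the 19-nt tags was not tested.

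The mean length of family tags was 21.67 nt in involution and 21.78 nt in lactation. It was shorter in involution in 7 of 9 members, by up to 0.288 nt in let-7e, and longer in let-7i and miR-98, by 0.0979 and 0.0779 nt. Among 36 other tag groups of at least 1000 TPM in both libraries, 25 were shorter in involution and 11 longer, with a median difference of -0.0258 nt. Shorter tags in involution were thus common beyond the family.

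Tags that ran 1 base past the mature end made up 8.25% of the family in involution and 9.73% in lactation. The extra base was T in 50.1% of them in involution and 52.5% in lactation, and A in 44.1% and 40.5%. G accounted for 4.39% in involution and 6.11% in lactation, and C for 1.36% and 0.927%. T and A are the bases that terminal nucleotidyl transferases are known to add to mature miRNAs. No genome sequence was used, so an extra base added after cutting and one encoded in the precursor cannot be told apart.

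let-7e was the exception. Its commonest extra base was G, which made up 57.3% of its 1-base extensions in involution and 73.5% in lactation. That tag is shown with the extra base in capitals.
let-7e, 23 nt: tgaggtaggaggttgtatagttG
It had 71.1 TPM in involution and 188 TPM in lactation, a ratio of 0.379 (0.345 to 0.415), well under the 0.836 of let-7e as a whole. All 1-base extensions took 13.9% of let-7e in involution and 23.996% in lactation, the widest gap of any member. In let-7g the extra base was T in 47.9% in involution and 65.4% in lactation.

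Some tags matched a member for at least 18 bases and then ended in 1 or 2 bases that its mature sequence does not have there. They were kept out of the levels above. They came to 4.07% of the family with them in involution and 4.12% in lactation. Where a single base did not match, it was A in 95.7% of tags in involution and 95.5% in lactation. The commonest example of let-7a, cut to 20 bases and followed by A, is shown beside that of let-7i, cut to 21 bases and followed by A.
let-7a, 20 nt and A: tgaggtagtaggttgtatagA
let-7i, 21 nt and A: tgaggtagtagtttgtgctgtA
The let-7a tag had 882 TPM in involution and 799 TPM in lactation. With C in that place there were 42 tags in involution and 106 in lactation, and with G 30 and 44, against 6514 and 14407 with A. After let-7a cut to 21 bases there were 2690 tags with A in involution and 9695 in lactation, against 91 and 432 with G. A was thus far commoner than C or G at both of these trimmed ends.

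The frequency of such ends differed between members. They came to 9.48% in involution and 18.5% in lactation for let-7i, and to 8.07% and 14.2% for miR-98. In let-7b they came to 6.94% in involution and 6.76% in lactation. let-7g had the fewest, with 1.20% in involution and 0.787% in lactation, followed by let-7f with 1.49% and 1.32%. The let-7i tag with A in place of the final T had 125 TPM in involution and 262 TPM in lactation, a ratio of 0.476 (0.443 to 0.511). In lactation this tag exceeded the complete 22-nt let-7i at 183 TPM, whereas in involution it was far below the complete form at 867 TPM.

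The 5′ end, which sets the seed, was nearly constant among the tags that the assignment rule admits. That rule leaves out tags with added 5′ bases or with more than 2 missing, so these were not counted. Tags that lacked 1 or 2 bases there made up 0.133% of the family in involution and 0.103% in lactation. Tags that lacked 2 bases made up 0.0277% in involution (307 tags) and 0.00617% in lactation (220 tags), and their share was higher in involution in 9 of 9 members. For let-7a they numbered 177 in involution and 108 in lactation, 4.001 times higher in TPM (3.13 to 5.13). Counts were below 50 in either library for each of the other members.

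Markers of the cell types in the gland were read by 9-base starts with the same call rule, under which 34.3% of tag groups were higher and 4.44% lower. Epithelial markers (miR-200 family with miR-141, miR-205, miR-375 and miR-148a) were present in both libraries, at a summed 52462 TPM in involution and 78505 TPM in lactation, and 3 of 6 starts were higher in involution and 1 lower. The one lower was miR-148a, with 25720 TPM in involution and 57239 TPM in lactation. Without it the list summed to 26742 TPM in involution and 21266 TPM in lactation, so the direction of the epithelial sum was that of miR-148a. miR-375 was 18.3 times, miR-205 5.66 times and the shared start of miR-141 and miR-200a 2.27 times higher in involution.

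Other lists were likewise carried by 1 start. Stromal and smooth muscle markers summed to 333713 TPM in involution and 320664 TPM in lactation, nearly all of it miR-143, and 2 of 5 were higher, miR-145 at 9.30 times and miR-214 at 8.80 times. Without miR-143 they summed to 2450 TPM in involution and 733 TPM in lactation. Leukocyte markers summed to 1350 TPM in involution and 1409 TPM in lactation, with 4 of 5 higher. Without miR-155 they summed to 645 TPM in involution and 191 TPM in lactation, so the near equality of the sum rested on that miRNA. Endothelial markers summed to 6513 TPM in involution and 7307 TPM in lactation, with 1 of 2 higher. Without miR-126-3p, 1534 TPM in involution and 364 TPM in lactation were left. Erythroid markers summed to 3247 TPM in involution and 961 TPM in lactation, with 2 of 3 higher. Without miR-451 they summed to 358 TPM in involution and 337 TPM in lactation. Leukocyte starts other than miR-155 and most erythroid starts were thus higher in involution. Skeletal muscle markers summed to 1573 TPM in involution and 1933 TPM in lactation. Without the shared start of miR-1 and miR-206, 7.04 TPM in involution and 0.832 TPM in lactation were left. The liver marker miR-122 stood at 6.36 TPM in involution and 1.28 TPM in lactation. No marker start was at 0 in either library. The part of cell composition in the let-7 ratios was not tested.

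The tag groups of at least 1000 TPM in both libraries whose log2 ratio lay nearest to that of the whole family, -0.40, are shown by their commonest tag, with the known miRNA that shares the first 9 bases.
Start of miR-1 and miR-206: tggaatgtaaagaagtatgtac
Start of miR-126-3p: tcgtaccgtgagtaataatgcg
Start of miR-200b and miR-200c: taatactgccgggtaatgatgga
Their log2 ratios were -0.43, -0.37 and -0.43. The measure of likeness was the difference in this 1 ratio over 2 libraries, and many groups of other kinds lie close to it.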

How the data were processed

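Small RNA of 18 to 30 nt was selected, ligated to a 5′ and a 3′ adaptor, amplified by RT-PCR and sequenced on the Solexa platform, per the labels' protocols. The deposited files list distinct clean tags with their length and raw count. The authors' filter logs begin with a step from total reads to high-quality reads. By those logs, the reads then removed were those with no insert, no 3′ adaptor or a 5′ adaptor contaminant, polyA reads, and inserts shorter than 18 nt. Tools and any mapping step are not stated there or in the labels. A count of 0 would allow up to 3 tags, equal to 0.406 TPM in involution and 0.166 TPM in lactation.

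The members, the marker lists and the rules were chosen with earlier results of these data known. All 9 members, their opposite arms, their gene neighbours and the 3 tag groups nearest to the family's ratio are named. let-7a was taken as the commonest 22-nt tag with the seed, and the other members by known substitutions from it, each of which was required to be a tag of both files. Names of members and the starts of other miRNAs come from general knowledge, not from a goat catalogue. With no hairpin table, extra bases could not be split into encoded and added, and tag groups replaced named miRNAs as the background. Groups 1 substitution away from a group that was at least 50 times as abundant (725) were set aside. Coordinates are left out, as the files state no build. Intervals of 95% are exact Poisson for levels, Clopper-Pearson for shares and conditional binomial for ratios. Alternatives covered scaling, assignment, level filter, fold limit and depth. Procedures were tested on simulated data. Python 3.11.15, numpy 2.4.6, scipy 1.17.1, R 4.3.3 and edgeR 4.0.16 (TMM factors only) were used.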

Additional observations from a re-analysis of the deposited data

How the results depend on the processing

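No paired analysis was possible because each stage had 1 pooled library. The family ratio of 0.757 was below 1 under all 11 scaling, assignment and depth alternatives. Over tag groups, median-of-ratios factors gave 0.553 and TMM factors 0.534. It was 0.777 when scaled to tags of 20 to 24 nt, and 0.767 without the most abundant miRNA. It was 0.702 for identical tags, 0.772 for tags no longer than the mature sequence, and 0.751 for tags of 20 nt or more. The count of called members, 1 in the report, was 2 with TMM factors (let-7b and let-7c lower, where 13.5% of tag groups were). It was 3 with identical tags (let-7c lower, where 7.3% of leading tags were, and let-7i and miR-98 higher, where 39.3% were). With a 1.5-fold limit it was 2 (let-7c lower, where 11.6% of tag groups were, and let-7d higher, where 46.4% were). The other 11 alternatives gave 1. let-7c was lower under all 14, with a ratio between 0.274 and 0.398. Of 99 member ratios under alternatives, 46 stayed within their counting interval. The cause of the differences between scalings was not tested. Scaling to RefSeq goat mature miRNAs, and factors over named miRNAs, were not run, because no goat miRNA sequence table was used here; the tag-group versions and the scaling to tags of 20 to 24 nt were chosen after seeing the data. Depth limits the opposite arms, 5′-shortened tags and 19-nt miR-98 tags, which rest on few counts.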

Other observations

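Tags of 36 nt or more that hold a family member joined to other sequence numbered 69 in involution and 726 in lactation, or 9.34 and 40.3 TPM. let-7b lay at the end of or within 3 such tags in involution and 191 in lactation, and let-7a began 15 in involution and 129 in lactation. These tags were not part of any level above.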
